A study of Homo sapiens with 6 samples.

Results

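Cytosolic ribosomal protein genes encode the proteins of the ribosome outside mitochondria. They were taken from a comparison of gene expression in PANC-1 cells, an established cell line grown from a human adenocarcinoma of the pancreatic duct, after SOX9 siRNA or control siRNA. A gene was a member if its symbol was RPL or RPS followed by a digit, or was RPLP0, RPLP1, RPLP2 or RPSA. Symbols of pseudogenes, of S6 kinases (RPS6K) and with a hyphen were left out. The rule gave 85 genes of the 19830 in the authors' deposited table. Of these, 31 belong to the small subunit, 46 to the large subunit, and 8 are paralogues, that is, related copies with a symbol of their own. Of these, 82 had an adjusted p and are called tested here. RPL21, RPL3L and RPS4Y1 had mean normalized counts of 1.79, 6.64 and 1.45 by the authors' deposited table and had a p-value but no adjusted p. All genes without an adjusted p there had mean counts of at most 21.9.

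Both groups were transfected with 25 nM of siRNA by Lipofectamine, pooled and harvested after 48 hours, per the labels' protocols. There were 2 libraries with SOX9 siRNA and 2 with control siRNA, and no untransfected library was analysed here. SOX9 is a transcription factor found in progenitors and ducts of the pancreas. The control siRNA shares the transfection but not the target. The protocols do not say whether the 2 libraries of a group came from cultures started separately, so the spread behind every p-value is that of these libraries and may be technical only. All results come from 1 cell line. SOX9, the targeted gene, stood at 55.9% of control (39.2% to 79.8%) by the authors' deposited table, with a DESeq2 adjusted p of 0.0643 that did not pass 0.05. The table does not say which siRNA is the numerator, so the direction of every fold change was read from the sign at SOX9, which therefore cannot check the labels.

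A ribosome is built from ribosomal RNAs and a large set of proteins, most of them needed in equal amounts. Nearly all mRNAs of these proteins share a start, the terminal oligopyrimidine (TOP) tract, a C followed by a run of C and T. When growth signals fall and mTOR is less active, the RNA-binding protein LARP1 stops the translation of TOP mRNAs together while the mRNAs are kept. A table of mRNA abundance does not show that control.

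The start sites below are given because the TOP tract is the sequence that ties the family together, and because paralogues differ in it. Each holds 15 bases before the annotated start and the first 15 transcribed bases, 5′ to 3′, from RefSeq on GRCh38.p14. Capitals mark the unbroken run of C and T that holds the first base, and there are no capitals where that base is A or G. RPS16 and RPLP0 had the most reads in the family, RPL14 and RPS9 were among those with the smallest p, RPS6 is the substrate of the S6 kinases, and RPL7A had the highest fold change of the tested large subunit genes.
RPS16 (chr19:39435935-39435964, minus strand): gtggcccctagCTTTCCTTTTCCggttgcg
RPLP0 (chr12:120201097-120201126, minus strand): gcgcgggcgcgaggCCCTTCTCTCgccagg
RPL14 (chr3:40457324-40457353, plus strand): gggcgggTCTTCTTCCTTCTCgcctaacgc
RPS9 (chr19:54200843-54200872, plus strand): gtggcgcttccgcgCCTCTTTCTCagtgac
RPS6 (chr9:19380222-19380251, minus strand): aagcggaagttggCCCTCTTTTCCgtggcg
RPL7A (chr9:133348203-133348232, plus strand): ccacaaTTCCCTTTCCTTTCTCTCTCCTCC
Core genes without the tract at any listed start include RPL4, RPS4X and RPS26. The tract was read at annotated starts only, so a start annotated some bases away from the one used can hide it. Their log2 fold changes were -0.11, -0.13 and -0.18 by the authors' deposited table. Tested members with and without the tract had medians of -0.12 and -0.13. RPS15 and RPS29 were picked from the core genes without the tract for their outlying point estimates, which did not pass the test. Their annotated starts hold only a short run, and a link between run and fold change was not tested.
RPS15 (chr19:1438381-1438410, plus strand): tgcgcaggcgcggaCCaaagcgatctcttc
RPS29 (chr14:49598696-49598725, minus strand): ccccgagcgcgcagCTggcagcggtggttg
Of the paralogues, RPL22L1 has the tract. In RPL36AL the run lies mostly before the annotated start, and RPL7L1 and RPS27L begin with G.
RPL36AL (chr14:49620612-49620641, minus strand): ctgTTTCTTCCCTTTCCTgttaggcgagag
RPL22L1 (chr3:170870181-170870210, minus strand): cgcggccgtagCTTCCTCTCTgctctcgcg
RPL7L1 (chr6:42879601-42879630, plus strand): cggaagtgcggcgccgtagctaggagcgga
RPS27L (chr15:63157463-63157492, minus strand): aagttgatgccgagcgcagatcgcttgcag

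RefSeq start windows of 250 bases before and 50 bases from the start on were matched for 68 of the 85 members. A start of C followed by at least 4 pyrimidines was present at 1 or more listed starts of 46 of 62 matched core genes, 74.2%. The same start was present in 7.29% of the 10144 tested genes with a window. It was present in 12 of 13 other mRNAs listed as TOP mRNAs, in 2 of 6 paralogues (RPL22L1 and RPS4Y1) and in 6 of 67 mitochondrial ribosomal protein genes, whose proteins serve a separate ribosome. The ETS motif CCGGAAG, searched on both strands, was present in 1 or more windows of 35.5% of core genes, against 21.7% of tested genes. It was more frequent in mitochondrial ribosomal protein genes, 29 of 67 or 43.3%, so it is not particular to the cytosolic family. ACAAT, the core of SOX motifs, on either strand, was present in 1 or more windows of 11 of 62 core genes, 17.7%, against 22.1% of tested genes. The MYC-type E-box CACGTG was present in 4 of 62, the YY1 motif AAGATGGC in 6 and the TATA box TATAAA in 5. Among tested genes the shares of these 3 motifs were 12.6%, 6.39% and 8.09%. Among the mitochondrial ribosomal protein genes they were 13.4%, 29.9% and 4.48%, and 23.9% held ACAAT. Genes with several listed starts had more windows to match, and a match is not shown to be a bound site.

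No ribosomal protein gene passed the test after SOX9 siRNA. The fold changes were mostly negative by point estimate and close to each other. Of 82 tested members, 0 were called at a DESeq2 Wald adjusted p under 0.05, where 1.81% of all 14063 tested genes were called, 0.868% as higher and 0.939% as lower. At an unadjusted p under 0.05 there were 4 members, all with lower values, which is 4.88% of the family. Of all tested genes 11.1% had such a p, and 6.15% had it with a lower value. Of the tested members 75 had a negative log2 fold change and 7 a positive one. Negative values made up 91.5% of the family and 52.1% of all tested genes. The median log2 fold change was -0.12, or 92.1% of control, and the median of all tested genes was -0.02. Since the members were chosen with results of these data known, no test of the family as a list was made.

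Other genes with many reads were set beside the family. Of 847 other genes with a mean count of at least 10000, 63.5% had a negative value, and their median was -0.06. The 67 ribosomal protein genes at that count had a median of -0.12, and 64 of them were negative. After centring, that is, subtracting the median of the tested genes with a mean count of at least 1000 (-0.05), the members' median was -0.07 and 68 of 82 were negative. Summed over all members, the counts implied for the 2 groups from the authors' deposited table were 2050874 with SOX9 siRNA and 2211959 with control siRNA, 92.7% of control. Without RPS29 the sum stood at 91.8% of control. The family took 4.47% of all normalized counts. Normalized counts are relative to the library, so fewer ribosomal protein mRNAs and more of other RNAs cannot be told apart, nor can fewer cells of a type and less RNA per cell.

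**Figure D1:**
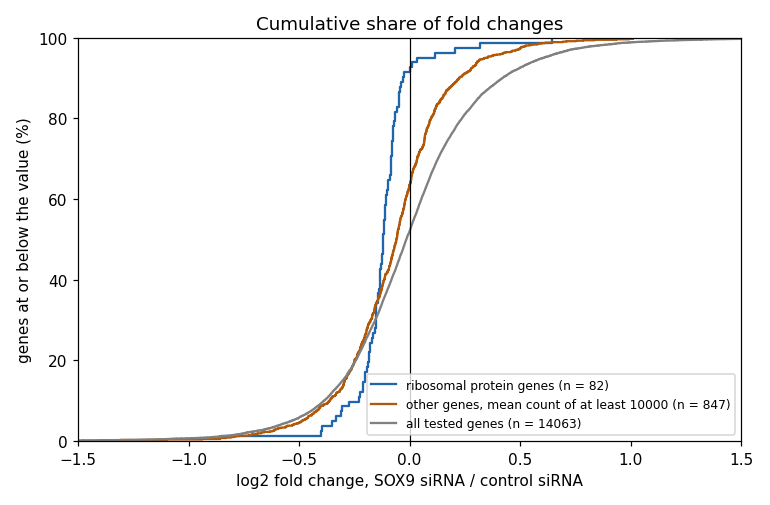
Cumulative percent of genes (vertical axis) at or below each log2 fold change of SOX9 siRNA over control siRNA (horizontal axis), for 82 ribosomal protein genes, 847 other genes with a mean count of at least 10000 and all 14063 tested genes. The curve of the ribosomal protein genes is the steepest of the 3 and reaches 91.5% at 0, where the other abundant genes reach 63.5% and all tested genes 52.1%.

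The members' values lay close together. Their quartiles ran from -0.17 to -0.08 on the log2 scale, a width of 0.09, where the quartiles of all tested genes were 0.38 apart. All tested genes include many with few reads and larger errors. For the 847 other genes with a mean count of at least 10000 the quartiles were closer, from -0.21 to 0.07. The median standard error of a member was 0.16, wider than the members' spread of 0.09, and the same 4 libraries lie behind every value. DESeq2 draws most variances towards those of genes with like counts, so most of these errors are partly shared and not each gene's own. Of the tested members 67 had a log2 fold change between -0.25 and 0, and 79 of 82 had a 95% interval that held the family's median. That median came from these same values and the intervals were wider than their spread, so this count does not show that the members changed alike. The interval lay within a 1.5-fold change in either direction for 72 of 82. RPL14, RPL22L1, RPL32, RPL39L, RPL7L1, RPS10, RPS15, RPS18 and RPS29 were among those with a wider or more distant interval. For 80 of 82 the interval lay within a 2-fold change.

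**Figure D2:**
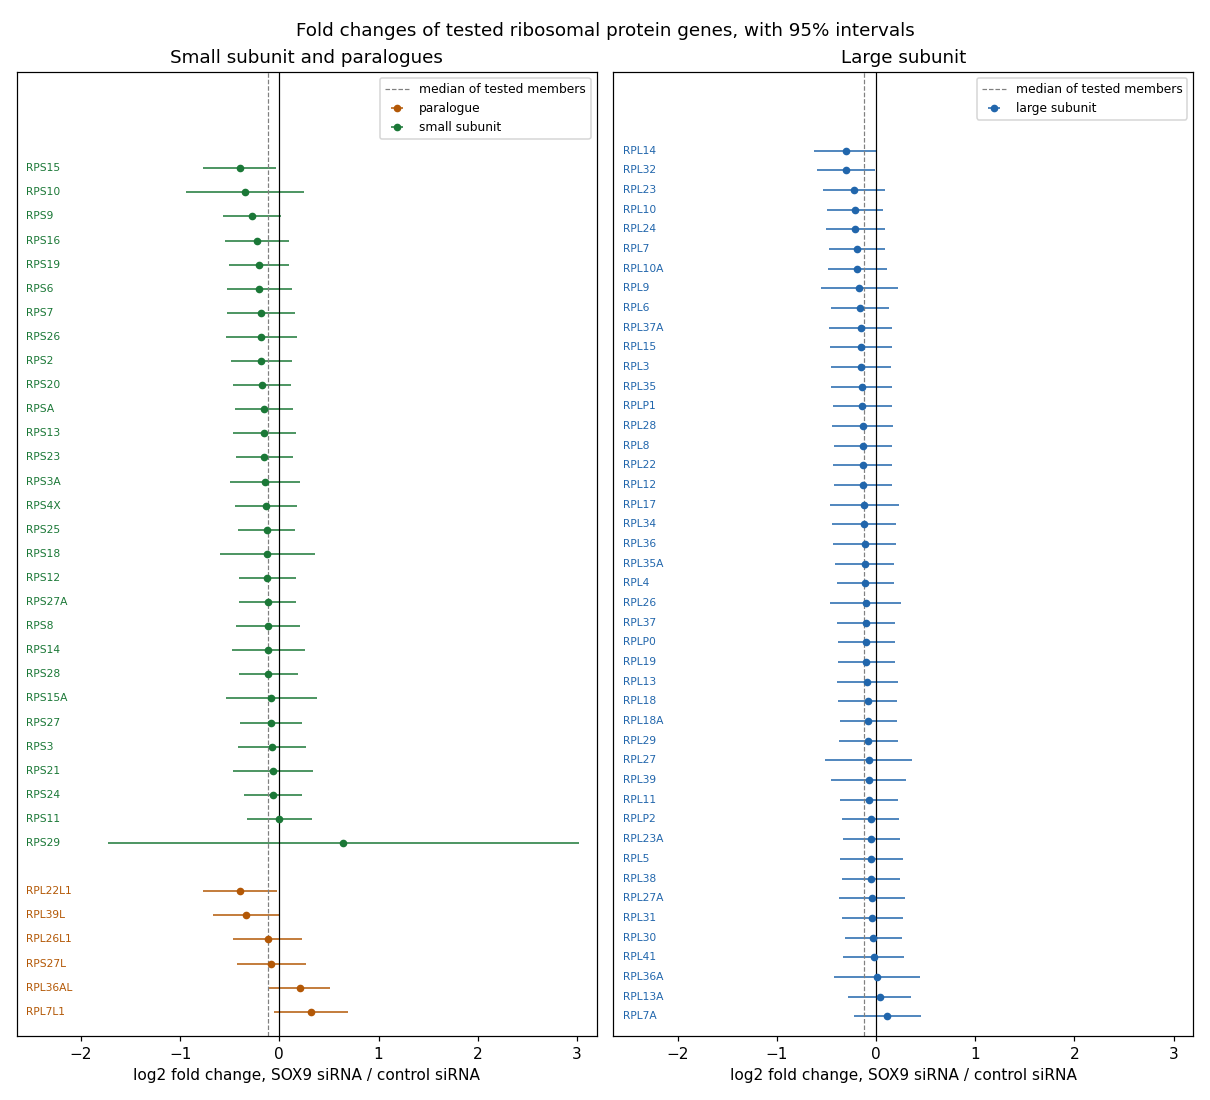
Log2 fold change of SOX9 siRNA over control siRNA (horizontal axis) for 80 of the 82 tested ribosomal protein genes, with points for the authors' estimates and bars for 95% intervals, sorted within the small subunit, the paralogues and the large subunit. Most points sit just left of 0 beside the dashed median of -0.12, with RPS15 and RPL22L1 farthest left at -0.40 and RPS29 farthest right at 0.64 with the widest bar.

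The deposited values are means over the 4 libraries and 1 fold change per gene, so no value per library can be given. For single genes the mean of each group was computed from that pair. RPS15, which sits near the decoding site, had implied counts from the authors' deposited table of 9286 with SOX9 siRNA and 12261 with control siRNA. Its log2 fold change by the authors' deposited table was -0.40 with a standard error of 0.19 and a DESeq2 adjusted p of 0.360. RPL32, of the large subunit, had implied counts from the authors' deposited table of 18832 with SOX9 siRNA and 23247 with control siRNA. It stood at 81.0% of control (66.0% to 99.4%) with a DESeq2 adjusted p of 0.420 by the authors' deposited table. RPS15, RPL32 and the paralogue RPL22L1 were among the 4 members at an unadjusted p under 0.05. Next among core genes in order of p, RPL14 and RPS9 stood at 80.8% and 82.6% of control by the authors' deposited table, with 95% intervals that held 100%. RPL10, a late-joining large subunit protein, and RPL24 stood at 86.3% and 86.4% of control by the authors' deposited table.

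RPS29, a small zinc-binding protein of the small subunit, had the widest interval of the tested members. Its log2 fold change by the authors' deposited table was 0.64 with a standard error of 1.21, 156% of control (95% interval 30.1% to 812%). That standard error was the largest of all 914 tested genes with a mean count of at least 10000, ahead of H19 with 0.97 by the authors' deposited table. By the usual relation of a DESeq2 standard error to spread with 2 libraries each, it implies a modelled coefficient of variation near 84.0%. The same relation gives 10.2% for RPLP0. These are values of the model and not spreads computed here from values per library. In that model most variances are drawn towards those of genes with like counts. Among 847 other genes with a mean count of at least 10000 the median standard error was 0.17. The standard error of RPS29 stayed far above that, so it was not drawn down to theirs. The mean normalized count of RPS29 by the authors' deposited table was 41204. In RefSeq the span of RPS29 also holds RN7SL1, the RNA of the signal recognition particle, which is abundant in total RNA. The part of reads from RN7SL1 in this value was not tested.

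**Figure D3:**
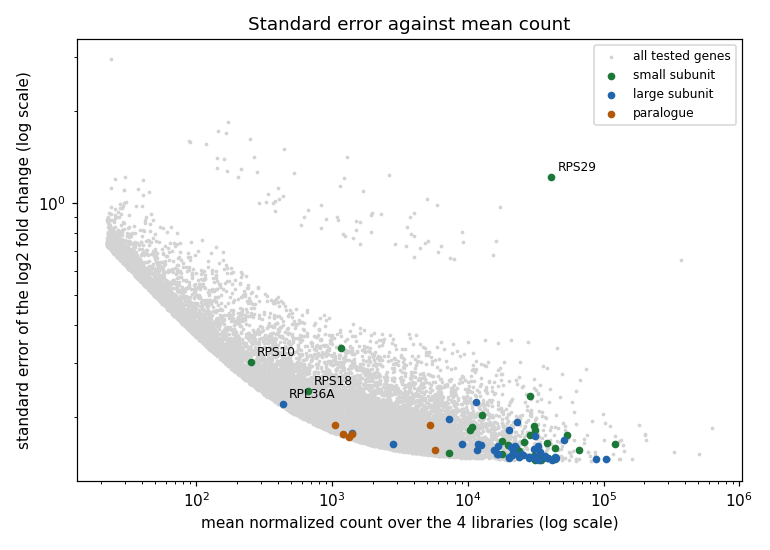
Standard error of the log2 fold change (vertical axis, log scale) against mean normalized count over the 4 libraries (horizontal axis, log scale) for all 14063 tested genes in grey and for ribosomal protein genes in colour. Most members lie along the lower edge at high counts, while RPS29 stands alone at 1.21 and a count of 41204.

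The 31 small subunit genes had a median log2 fold change of -0.13, with 29 negative, and the 45 tested large subunit genes a median of -0.11, with 42 negative. After the same centring 29 small subunit and 35 large subunit genes were negative. RPS16 and RPLP0 had the most reads of the family, with log2 standard errors of 0.16 and 0.15 by the authors' deposited table. The implied count of RPS16 from the authors' deposited table was 111990 with SOX9 siRNA and 131078 with control siRNA, a level of 85.4% of control (68.4% to 106.7%). For RPLP0, the scaffold of the stalk, it was 100096 with SOX9 siRNA and 107218 with control siRNA, or 93.4% (76.5% to 113.9%), from the authors' deposited table. Counts are not corrected for transcript length here, so they are not compared as levels between genes.

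The stalk of the large subunit, which recruits elongation factors, is formed by RPLP0, RPLP1 and RPLP2 on a base that includes RPL12. The 4 genes had log2 fold changes between -0.14 for RPLP1 and -0.06 for RPLP2 by the authors' deposited table, with a lowest adjusted p of 0.847. RPL4, RPL17 and RPL39 line the tunnel through which the new protein leaves. Their log2 fold changes by the authors' deposited table were -0.11, -0.12 and -0.08. RPL19, RPL23A, RPL26, RPL31 and RPL35 surround the exit of that tunnel and ran from -0.14 for RPL35 to -0.04 for RPL31 by the authors' deposited table. Stalk, tunnel and exit genes were all negative by point estimate, except that RPL23A and RPL31 turned positive with that centring. Of these genes 0 passed the test and 0 had an unadjusted p under 0.05, against 1.81% and 11.1% of all tested genes.

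On the small subunit, RPS2, RPS3, RPS14, RPS15, RPS23 and RPS26 lie along the path of the mRNA or at the decoding site. Their point estimates were all negative, from -0.40 for RPS15 to -0.07 for RPS3 by the authors' deposited table. RPS2, RPS3, RPS10 and RPS20 carry the ubiquitin that marks stalled or collided ribosomes. RPS10 had the lowest value of the 4 by the authors' deposited table, a log2 fold change of -0.35 with a standard error of 0.30 at a mean count of 252, with an adjusted p of 0.772. RPS2 and RPS20 both stood at -0.18 by the authors' deposited table. RPS6, phosphorylated by the S6 kinases downstream of mTOR, was at 87.0% of control (69.3% to 109%) by the authors' deposited table.

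RPL5 and RPL11 join the smallest ribosomal RNA and, when ribosome assembly fails, bind and block MDM2, the ligase that degrades p53. RPL5 had implied counts from the authors' deposited table of 20337 with SOX9 siRNA and 21017 with control siRNA, and RPL11 of 37371 with SOX9 siRNA and 39258 with control siRNA. They stood at 96.8% and 95.2% of control by the authors' deposited table, with 95% intervals that held 100%. With the centring RPL5 turned positive. MDM2 had a log2 fold change of -0.52 (standard error 0.20, DESeq2 adjusted p of 0.193) by the authors' deposited table. CDKN1A, a p53 target, had 0.20 with an adjusted p of 0.755 by the authors' deposited table. The 18 members in which mutations cause Diamond-Blackfan anaemia had a median of -0.11, with 17 negative, RPS29 being the other, and 15 negative after the centring.

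RPS4X, RPL10, RPL36A and RPL39 are on the X chromosome, and their log2 fold changes by the authors' deposited table ran from -0.21 for RPL10 to 0.01 for RPL36A. RPS27A is made as a fusion with ubiquitin, and the product of FAU, which has no RPL or RPS symbol, as a fusion with a ubiquitin-like protein. By the authors' deposited table the log2 fold change was -0.12 for RPS27A and -0.10 for FAU.

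Of the 6 tested paralogues 0 passed, and 4 were negative, with a range from -0.40 to 0.32. Among all tested genes 1.81% passed. RPL22L1 is the paralogue of RPL22, a large subunit protein. RPL22L1 had implied counts from the authors' deposited table of 914 with SOX9 siRNA and 1204 with control siRNA, and stood at 76.0% of control (58.8% to 98.2%) with a DESeq2 adjusted p of 0.385. RPL39L, the paralogue of RPL39, stood at 79.4% of control (62.8% to 100.4%) by the authors' deposited table. RPL26L1 and RPS27L, a target of p53, stood at 92.1% and 94.4% of control by the authors' deposited table. The 2 tested paralogues with positive values were RPL36AL and RPL7L1, which is related to RPL7. RPL36AL was at 115% of control (93.1% to 143%) and RPL7L1 at 125% (96.5% to 161%) by the authors' deposited table.

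Each tested paralogue was set against its core gene, with the errors of the 2 genes taken as independent and p-values adjusted over the 6 pairs. The largest difference was that of RPL7L1 minus RPL7, 0.51 on the log2 scale with a 95% interval from 0.04 to 0.98, a p of 0.0323 in a model-based normal test and an adjusted p of 0.194. It did not pass. RPL22L1 minus RPL22 was -0.26 (-0.74 to 0.21), and RPL39L minus RPL39 was -0.26 (-0.76 to 0.25). RPL36AL minus RPL36A was 0.19 (-0.34 to 0.72). RPL26L1 minus RPL26 was -0.01 (-0.51 to 0.48), and RPS27L minus RPS27 was -0.0016 (-0.47 to 0.47). None of the 6 passed over the pairs, and intervals of this width do not show that paralogue and core gene act alike.

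Members were also split by the pyrimidine tract at their annotated start, with no test. The 46 tested members with the tract had a median log2 fold change of -0.12 with 43 negative, and the 20 without it had -0.13 with 17 negative. Among other tested genes with a mean count of at least 1000, the 439 with such a start had a median of -0.08 and the 5610 without it -0.05. Core genes that hold snoRNA genes in RefSeq, 28 of those tested, had a median of -0.11, and the other 48 had -0.12. Many ribosomal protein genes carry small nucleolar RNAs in their introns.

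For 7 of the 77 core genes the mean count by the authors' deposited table was under 3000, from RPL21 with 1.79 to RPL13A with 2830. RPS10, RPL36A, RPS18 and RPL17 were among the others. In RefSeq, RPS10, RPL36A and RPL17 overlap read-through genes, named RPS10-NUDT3, RPL36A-HNRNPH2 and RPL17-C18orf32, and RPL21 has 137 named pseudogenes, the most of all members. Reads that fit several genes or copies can be dropped or shared out in counting, which the sources used here do not describe, and their part in these values was not tested. Any member may share reads with its processed pseudogenes, so single values are uncertain.

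Other genes of translation were set beside the family. The 21 other TOP mRNAs, which encode elongation factors and similar proteins, were all negative by point estimate, 15 of them after the centring, with a median of -0.08 and 0 called. EEF1A1, the elongation factor that brings tRNA to the ribosome, had the most reads among them and a log2 fold change of -0.13 (adjusted p of 0.865) by the authors' deposited table. GNB2L1, now RACK1, a scaffold on the small subunit, had -0.12 and EEF2, which moves the ribosome along, -0.14 by the authors' deposited table. Of 49 tested initiation factors 43 were negative, 33 after the centring, with a median of -0.08. EIF4G2, the initiation factor gene with the most reads, had -0.35 with an adjusted p of 0.500 by the authors' deposited table. Of 12 elongation and release factors 9 were negative, 7 after the centring, with a median of -0.07. The 76 mitochondrial ribosomal protein genes had a median of -0.06 with 49 negative, 64.5%, or 43 after the centring, and quartiles from -0.18 to 0.04. These 4 lists held 0 called genes. An unadjusted p under 0.05 was found for 1 TOP mRNA, 2 initiation factors, 0 elongation and release factors and 3 mitochondrial ribosomal protein genes. Among all tested genes 11.1% had such a p and 1.81% were called.

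Genes that supply the family were measured as well. The 9 transcription factors listed for ribosomal protein genes were all negative by point estimate, apart from SP1 after the centring, with a median of -0.25, 0 called and 3 at an unadjusted p under 0.05. Among all tested genes 1.81% were called and 11.1% had an unadjusted p under 0.05, and the lists given here are short. MYC, a driver of ribosome synthesis, had a log2 fold change of -0.39 (standard error 0.17, adjusted p of 0.324) by the authors' deposited table. Its partner MAX had -0.51 and GABPB1, a subunit of an ETS factor, -0.54 by the authors' deposited table, where their adjusted p was 0.264 (MAX) and 0.227 (GABPB1). SP1 had -0.02 by the authors' deposited table. Of 10 chaperones and importers of ribosomal proteins 9 were negative, 6 after the centring, with a median of -0.12, 0 called and 2 at an unadjusted p under 0.05, both lower. IPO5, an importin, had the lowest value, -0.63 with an adjusted p of 0.150 by the authors' deposited table. Among 13 genes of mTOR and LARP1, 9 were negative, 8 after the centring, with a median of -0.14, a range from -0.51 to 0.16, 0 called and 2 at an unadjusted p under 0.05, both lower. LARP1, which holds TOP mRNAs, had -0.22 by the authors' deposited table. The lowest value of that list was -0.51 for LARP1B, a relative of LARP1, and the highest 0.16 for MTOR by the authors' deposited table. The 12 genes listed for the making of ribosomal RNA had a median of -0.11 with 7 negative, 0 called and 0 at an unadjusted p under 0.05.

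**Figure D4:**
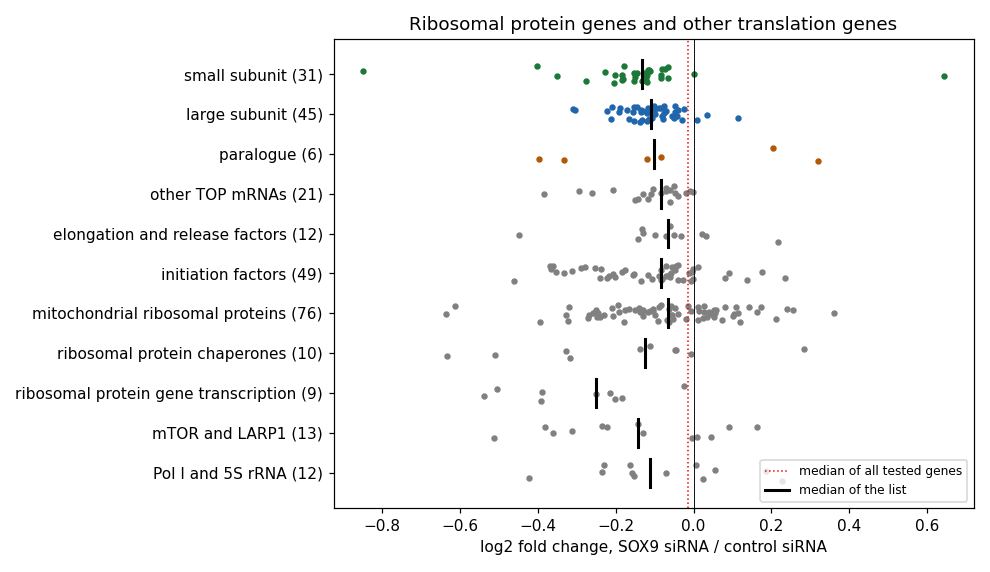
Log2 fold change of SOX9 siRNA over control siRNA (horizontal axis) for the tested genes of each list (rows, with the number of genes), 1 point per gene, a black bar for the median of the list and a dotted red line for the median of all tested genes, -0.02. The points of both subunits bunch between -0.25 and 0, while those of mitochondrial ribosomal protein genes spread to both sides of 0.

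Cell type markers were read as a check of the labelled line. The duct and epithelial markers KRT7, KRT8, KRT18, KRT19, EPCAM and CDH1 were all tested, with mean counts from 354 to 203350 by the authors' deposited table. EPCAM, an adhesion protein of epithelia, passed the test with a log2 fold change of -1.76 there, and KRT8, KRT18 and KRT19 had 0.55, 0.50 and 0.50 by the authors' deposited table. Of the 6 duct markers 5 had positive values and 1 passed the test, where 1.81% of all tested genes passed. Their part in the ribosomal protein values was not tested. Leukocyte, endothelial, acinar and endocrine markers had mean counts of at most 3.87 there, and 0 of these were tested.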

How the data were processed

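Total RNA was made into stranded libraries and sequenced in pairs of 100 bp reads, with a minimum of 60 M reads per library, per the labels' protocols. Alignment and testing tools named by the submitters' processing notes are HISAT2 2.0.5, DESeq2 1.18.1 and featureCounts, with the builds hg19 and mm10 and no role or settings. No source used here states if counting used strand, which leaves overlapping genes uncertain. The mean normalized count is the authors' signal over all libraries as deposited. Per the file headers, the fold change and standard error were deposited on a log2 scale. The Wald statistic, a score, was deposited too. Each p-value, raw or adjusted over 14063 tested genes, was computed by the authors. Library depths cannot be read from a table of means. No header says which siRNA is the numerator. It was taken to be SOX9 siRNA because SOX9 had a negative value, and every direction would turn if that reading were wrong.

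Each 95% interval spans 1.96 standard errors on both sides. Group means were computed from the deposited mean and fold change, with both groups weighted alike. Symbols, overlaps and start windows came from RefSeq on GRCh38.p14, which held all 85 members by symbol. Computation used Python 3.11.15, pandas 2.3.3 and scipy 1.17.1, and was tested on simulated data. The members and lists were chosen with earlier results of these data known. Genes were named by a rule: paralogues, untested members, the 10 smallest p, the 5 highest and 5 lowest fold changes, the 6 largest counts, all members of the short role lists, and each list's most abundant gene. Other genes, such as CDKN1A, MYC, MAX, GABPB1, IPO5, LARP1B, MTOR, EEF2, GNB2L1, H19, RPL19, RPL26, RPL31 and RPL35, were named after their values were seen. A part of that rule on counts per coding length was not run, since no transcript lengths were used here. Some genes that the rule names are not reported here. The 2 SOX9 ChIP samples were not analysed here.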

Additional observations from a re-analysis of the deposited data

How the results depend on the processing

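The count of 0 ribosomal protein genes called was also found with adjustment over every gene, a mean count of at least 100, thresholds of 0.01 and 0.1, both centrings and an empirical null. The threshold of 0.01 could not raise that count. Adjustment over every gene and the empirical null called fewer genes of all, 191 and 93 against 254, and could hardly raise it. The count was 4, all lower, at an unadjusted p under 0.05. The number of negative members ranged from 61 of 67, with no pseudogene row of their own, to 75 of 82, and was 68 of 82 after centring on genes with a mean count of at least 1000. The family's median ranged from -0.12 to -0.07, the inverse-variance weighted mean was -0.12, and without RPS29, an alternative chosen after seeing the data, the median was -0.12. Of 48 tested named genes under 7 settings, 330 of 336 values kept their sign and their side of the threshold. The other 6 turned positive after centring on genes with a mean count of at least 1000, none of them called: RPL27A 0.0099, RPL5 0.0055, RPL23A 0.0040, IPO7 0.0074, SP1 0.028 and MRPS12 0.00015. Only the centrings could turn a sign. None of the 48 genes was called in the main setting, so settings that call fewer genes could hardly move them. Most of the 330 were therefore fixed in advance and are no measure of stability. No paired analysis was possible because the table holds no values per library, and leaving out single libraries could not be run for the same reason. With a median standard error of 0.16, a change of the size of the family's median is not detectable in a single member.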

Other observations

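The rows that the naming rule left out also held 0 called genes, where 1.81% of all tested genes were called. Of 25 pseudogene rows 17 were tested, with a median log2 fold change of -0.04 and 10 negative. RPSAP58, the pseudogene with the most reads, had a mean normalized count of 4410 and a log2 fold change of -0.20 by the authors' deposited table, beside -0.15 for RPSA. Whether reads of RPSA were counted to RPSAP58 was not tested. Of 10 S6 kinase rows 9 were tested, 5 of them negative, with a median of -0.0045. RPS6KL1 had the highest value of those tested, 0.43 with a p of 0.0487 and a DESeq2 adjusted p of 0.444 by the authors' deposited table, and was chosen after its value was seen. RPS19BP1, which binds RPS19, had -0.19 by the authors' deposited table, beside -0.20 for RPS19.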
